A study of Mus musculus with 7 samples.

Results

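The microRNA miR-21 comes from a hairpin encoded within the span of Vmp1, called its host gene, and lowers the output of the messages it binds. Values were sought for 9 genes by name, the precursor gene Mir21a, Vmp1 and 7 targets of miR-21 (Pdcd4, Spry1, Spry2, Reck, Timp3, Peli1 and Btg2), in wound macrophages collected on day 3 (d3) or day 7 (d7) after sponges were implanted. A gene was taken where a probe set of the array carried its symbol and no other. All 7 targets had 1 such probe set each, out of 30176 genes with a probe set of their own. Mir21a and Vmp1 had none, because the array lists both under a shared probe set, so the values below belong to the targets, and that shared probe set is described apart. The arrays held 3 samples from d3 and 4 from d7, called biological replicates in the labels. Each sample was RNA of CD11b+ F4/80+ cells recovered from polyvinyl alcohol sponges under the dorsal skin of mice. The study's methods describe young adult mice of both sexes, and the labels give wounding for all arrays and name no strain, genotype or treatment. No unwounded control was analysed here. How many mice stood behind an array was not given, so p-values measure the spread between these samples. In such bulk RNA, fewer cells of a type and less RNA per cell cannot be told apart.

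A microRNA is cut from a long primary transcript to a hairpin in the nucleus and from the hairpin to a short duplex in the cytoplasm, and a strand of that duplex is loaded onto an Argonaute protein. The loaded strand pairs with messages chiefly through its seed, the bases from position 2 to position 8. Pairing mostly shortens the life of the message and reduces its translation. In macrophages miR-21 is known to follow Toll-like receptor signals and the uptake of apoptotic cells, and its target Pdcd4 is known to shift the balance of inflammatory cytokines. The study asked about miR-21 reaching wound macrophages from keratinocytes. The arrays give the messages of macrophages from implanted sponges, and they do not measure such delivery.

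The hairpin and the mature strands are shown because they carry the seed that defines the targets. They come from RefSeq on the build GRCm38.p6, and the hairpin lies at chr11:86584067-86584158 on the minus strand, within the span of Vmp1. In the first line below the capitals mark the mature strands, at bases 18 to 39 and 56 to 77 of the 92-base hairpin.
Mir21a hairpin: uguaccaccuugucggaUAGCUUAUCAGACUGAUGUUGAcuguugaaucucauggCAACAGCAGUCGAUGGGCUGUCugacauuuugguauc
In the next lines the capitals mark the seed.
miR-21a-5p: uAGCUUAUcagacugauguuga
miR-21a-3p: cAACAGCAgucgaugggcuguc
miR-21b: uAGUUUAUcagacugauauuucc
miR-21c: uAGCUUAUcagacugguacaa
A message that pairs with the whole seed of miR-21a-5p holds the letters AUAAGCU. Of 1738 mature mouse microRNAs in the table, 2 have that seed, miR-21a-5p and miR-21c. Counted from the 5′ end, miR-21b differs from miR-21a-5p inside the seed by C4U, and miR-21c differs only behind it, first by A16G. The probe sets listed for miR-21b and miR-21c, each under a pair of names, were at 3.45 or below on every array. That is under 5.39, the highest log2 value that any antigenomic probe gave on any array, used here as the array background.

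The shared probe set (TC1100003450.mm.1, listed as Vmp1, Mir21a and Mir21) was well above the background on both days and differed little between them. Vmp1 encodes a membrane protein of the endoplasmic reticulum that takes part in forming autophagosomes. On d3 replicates 1, 3 and 4 had log2 levels of 11.29, 11.12 and 11.44, and at d7 replicates 5, 6, 7 and 8 all had the same value, 11.20. The d7 value lay inside the range of the d3 arrays. Means were 11.29 ± 0.16 (SD, n = 3) at d3 and 11.20 ± 0 (SD, n = 4) at d7, a log2 difference of -0.09 with a 95% confidence interval from -0.27 to 0.09 (adjusted p = 0.662 from limma). On the linear scale the d7 mean was 0.939-fold the d3 mean. One value on all 4 d7 arrays was found in 7.87% of the probe sets above the background. Which share of this signal came from the host message and which from the precursor cannot be told apart. The mature microRNA was not measured here.

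**Figure D1:**
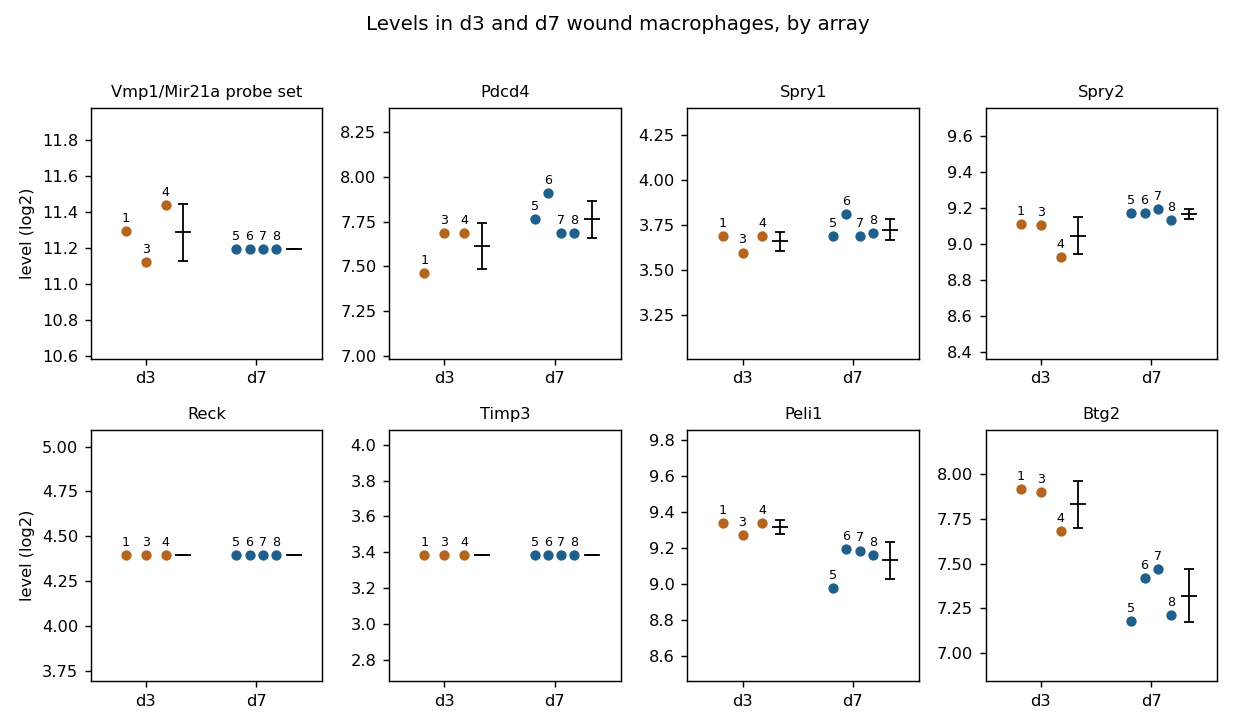
Log2 level (y axis, each panel spanning 1.4 units) on each d3 and d7 array (x axis) for the probe set listed as Vmp1 and Mir21a and for the 7 targets, with points numbered by replicate, a bar for the mean and whiskers for the SD (n = 3 at d3, n = 4 at d7). The d7 points of Btg2 and Peli1 sit below all d3 points, those of Spry2 above them, and Reck and Timp3 show 1 value on every array.

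None of the 7 targets passed the test between d3 and d7 in limma at an adjusted p under 0.05, where 0.117% of all probe sets did (0.0637% higher and 0.0531% lower at d7). At an unadjusted p under 0.05 there were 2, Btg2 and Peli1, both lower at d7, where 7.66% of all probe sets and 17.6% of those above the background reached it. The methods' t-test called the same 2 before adjustment and none after Benjamini-Hochberg. Means were higher at d7 for 3 targets, lower for 2 and equal for 2, and the median log2 difference was 0, against -0.00092 over all 65956 probe sets. The arrays of the days did not overlap for 3 of the 7, against 6% of all probe sets and 14.6% of those above the background (6.55% with d7 above d3 and 8.03% with d7 below). Btg2 and Peli1 were below and Spry2 above. The targets were chosen with earlier results of these data known, so no test of these shares was made.

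Btg2 had the largest difference of the 7. It encodes an antiproliferative protein that brings the CCR4-NOT deadenylase to messages and is induced by p53. On d3 replicates 1, 3 and 4 had 7.91, 7.90 and 7.68, and at d7 replicates 5, 6, 7 and 8 had 7.18, 7.42, 7.47 and 7.21. Every d7 array lay below every d3 array, with d3 replicate 4 the nearest to d7. The means were 7.83 ± 0.13 (SD, n = 3) and 7.32 ± 0.15 (SD, n = 4), and the d3 mean was 1.42-fold the d7 mean. The log2 difference was -0.51 (standard error 0.10, adjusted p = 0.279 from limma), with a 95% confidence interval from -0.76 to -0.26. That is larger than the difference of 90.9% of the probe sets above the background. Among the 12129 probe sets with 7 different values on the 7 arrays, Btg2 passed (adjusted p = 0.0405 from limma). That restriction was chosen after seeing the data and uses the values tested. A larger share of its probe sets passed than of all probe sets. In the other adjusted alternatives the adjusted p of Btg2 ran from 0.0787 to 0.640.

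The other measured BTG/TOB genes and CCR4-NOT subunits showed no such difference. Of 12 measured genes of that list none passed and none reached an unadjusted p under 0.05, and the median log2 difference was 0.01 (from -0.11 to 0.35). Btg1, a relative of Btg2 expressed in resting cells, had 11.35 ± 0.13 at d3 and 11.56 ± 0.19 at d7 (adjusted p = 0.662). Pabpc1, a poly(A)-binding protein, had 14.33 ± 0.31 and 14.68 ± 0.04 (adjusted p = 0.647). The log2 differences, 0.21 and 0.35, had 95% confidence intervals that held 0.

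Peli1 encodes a ubiquitin ligase that works in signalling below Toll-like receptors and the IL-1 receptor. Its d3 levels were 9.34, 9.27 and 9.34 in replicates 1, 3 and 4, and its d7 levels were 8.98, 9.20, 9.19 and 9.16 in replicates 5 to 8. The days did not overlap, with d3 replicate 3 and d7 replicate 6 nearest to each other and d7 replicate 5 the lowest. The means were 9.32 ± 0.04 (SD, n = 3) and 9.13 ± 0.10 (SD, n = 4), a log2 difference of -0.19 with a 95% confidence interval from -0.34 to -0.04 (adjusted p = 0.647 from limma). The d3 mean was 1.14-fold the d7 mean.

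Around Peli1, several genes of Toll-like receptor and IL-1 receptor signalling had lower values at d7, but none passed. Of 18 measured, 5 reached an unadjusted p under 0.05, all lower at d7, where 9.55% of the probe sets above the background were lower at that level. The list's median log2 difference was -0.05. Irak3, which restrains signalling from these receptors, had 12.62, 12.34 and 12.43 on the d3 arrays and 11.25, 11.57, 11.67 and 11.24 on the d7 arrays (adjusted p = 0.116). Its log2 difference of -1.03 passed after quantile normalization, among probe sets above the background and among those with 7 different values (adjusted p = 0.0414, 0.0289 and 0.00768). In each of these settings a larger share of probe sets passed too. Rel, the NF-kB subunit c-Rel, had 12.21 ± 0.32 at d3 and 11.41 ± 0.14 at d7 (adjusted p = 0.303). Myd88, the adaptor that these receptors share and a published target of miR-21, had 12.75 ± 0.26 and 12.29 ± 0.12 (adjusted p = 0.598). For each of these 3 genes the d7 arrays lay below the d3 arrays, as for 4 of the 18 and for 8.03% of the probe sets above the background.

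Spry2 and Spry1 encode Sprouty proteins, which restrain signalling from growth factor receptors to the kinase ERK. Spry2 had 9.11, 9.11 and 8.93 at d3 and 9.17, 9.17, 9.19 and 9.13 at d7. The days did not overlap, and d3 replicate 4 stood lowest, apart from the other 6 arrays. Its means were 9.05 ± 0.10 (SD, n = 3) and 9.17 ± 0.03 (SD, n = 4), a log2 difference of 0.12 with a 95% confidence interval from -0.01 to 0.24 (adjusted p = 0.647 from limma). Spry1 was at the background on both days, at 3.66 ± 0.05 at d3 and 3.73 ± 0.06 at d7 (adjusted p = 0.662), and its relatives Spry3 and Spry4 were at the background too.

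The genes of ERK feedback around the Sprouty proteins gave no call. Of 23 measured none passed, 1 reached an unadjusted p under 0.05 (7.66% of all probe sets, 17.6% above the background), and the median log2 difference was 0.03. That gene was Dusp6, the phosphatase that inactivates ERK and is itself induced by it, with 13.50 ± 0.67 at d3 and 14.30 ± 0.07 at d7 (adjusted p = 0.647). Cbl, a ubiquitin ligase of growth factor receptors, had 14.21 ± 0.25 and 14.57 ± 0.27 (adjusted p = 0.662).

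Pdcd4 encodes an inhibitor of translation that holds the helicase eIF4A, and it is among the best known targets of miR-21 in macrophages. On d3 its levels were 7.46, 7.69 and 7.69, and at d7 they were 7.77, 7.91, 7.69 and 7.69. The groups overlapped, with 2 d3 and 2 d7 arrays at the same value, d3 replicate 1 the lowest and d7 replicate 6 the highest. The means were 7.61 ± 0.13 (SD, n = 3) and 7.76 ± 0.10 (SD, n = 4), a log2 difference of 0.15 with a 95% confidence interval from -0.06 to 0.35 (adjusted p = 0.662 from limma). Of 10 measured partners and degraders of Pdcd4 none passed, and 2 reached an unadjusted p under 0.05, both lower at d7, as 9.55% of the probe sets above the background were. They were Eif4g2, an initiation factor related to eIF4G, with 12.61 ± 0.07 at d3 and 12.32 ± 0.11 at d7 (adjusted p = 0.429), and Eif4a1, the helicase itself, with 12.80 ± 0.11 and 12.63 ± 0.08 (adjusted p = 0.647).

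Reck and Timp3 encode inhibitors of metalloproteases, Reck on the cell surface and Timp3 bound to the matrix. Both were at the array background, Reck at 4.39 and Timp3 at 3.38 on each of the 7 arrays, so neither message was measured above background at d3 or d7. A probe set with 1 value on all arrays was found 3754 times among the 65956. The fit gives such a probe set an error taken from the other probe sets, so no interval is given. Among 12 measured metalloproteases and inhibitors of the same system none passed, 2 were higher and 3 lower at an unadjusted p under 0.05, and 6 lay at the background. That level was reached by 7.66% of all probe sets, and above the background by 8.06% as higher and 9.55% as lower. Their log2 differences ran from -0.83, for the protease gene Mmp9, to 0.72, for Timp2, another inhibitor of metalloproteases. Mmp9 had 10.70 ± 0.22 at d3 and 9.86 ± 0.20 at d7 (adjusted p = 0.223), with every d7 array below every d3 array. Timp2 had 11.69 ± 0.18 at d3 and 12.41 ± 0.12 at d7 (adjusted p = 0.145). Lrp1, the receptor that clears such proteases and inhibitors, had 16.25 ± 0.09 and 16.56 ± 0.05 (adjusted p = 0.198), and the membrane protease Mmp14 had 14.14 ± 0.41 and 13.52 ± 0.25 (adjusted p = 0.647).

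**Figure D2:**
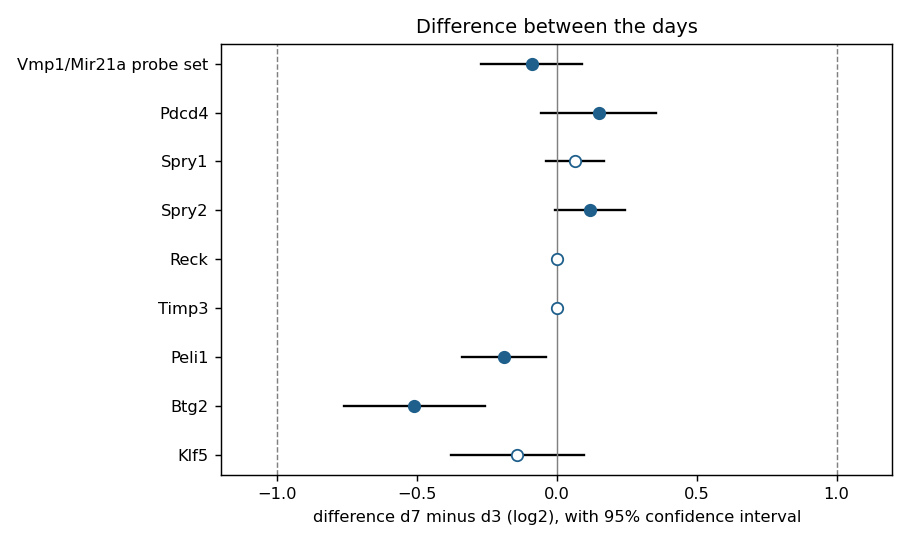
Log2 difference d7 minus d3 (x axis) for the probe set listed as Vmp1 and Mir21a, the 7 targets and Klf5, with lines for the 95% confidence interval from limma, filled points for means above the array background and open points for those at it, with dashed lines at a 2-fold difference. Every interval drawn lies inside 2-fold, the one of Btg2 reaching -0.76, and Reck and Timp3 have no interval because each had 1 value on all arrays.

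The study names Klf5, a transcription factor, as a target of miR-21. Klf5 was at the background, at 4.16 ± 0.21 (SD, n = 3) at d3 and 4.02 ± 0.03 (SD, n = 4) at d7 (adjusted p = 0.662 from limma). Of 40 other targets published from mouse or human cells 37 were measured. None of the 37 passed, 4 were higher and 4 lower at d7 at an unadjusted p under 0.05 (7.66% of all probe sets, 17.6% of those above the background), and the median log2 difference was 0 (from -1.03 to 1.24). Jag1, a ligand of Notch receptors, had 8.16, 7.73 and 7.67 at d3 and 9.09, 9.20, 9.42 and 8.66 at d7 (adjusted p = 0.212). Cxcl10, an interferon-induced chemokine, had 7.22, 7.90 and 7.58 at d3 and 6.53, 6.79, 6.42 and 6.42 at d7 (adjusted p = 0.222). The d7 arrays of Jag1 lay above, and those of Cxcl10 below, all d3 arrays. Marcks, a membrane protein that binds actin, had 13.90 ± 0.07 and 13.66 ± 0.11 (adjusted p = 0.601), and Tgfbi, a secreted matrix protein, had 15.99 ± 0.09 and 15.90 ± 0.09 (adjusted p = 0.662). The published targets thus had means on both sides of 0, 16 higher, 15 lower and 6 equal.

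The machinery that makes and uses microRNAs was above the background in full and differed little. Of 16 measured genes none passed, 3 were higher and none lower at d7 at an unadjusted p under 0.05 (8.06% and 9.55% of the probe sets above the background), and the median log2 difference was 0.03 (from -0.04 to 0.37). Ddx17, a helicase that helps the nuclear cut, had 12.82 ± 0.15 at d3 and 13.01 ± 0.06 at d7 (adjusted p = 0.647). Ddx6, a helicase of message silencing, had 12.37 ± 0.43 and 12.74 ± 0.07 (adjusted p = 0.662). Dicer1, which makes the cytoplasmic cut, had a log2 difference of 0.14, and Ago2, the Argonaute that can slice a message, had 0.05 (adjusted p = 0.647 and 0.889). Both were named for their roles after their values were seen.

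Transcription factors published as regulators of the miR-21 gene gave no call either. Of 20 measured none passed, 3 were higher and 1 lower at d7 at an unadjusted p under 0.05 (8.06% and 9.55% above the background), with a median log2 difference of 0.08. Jun, a subunit of AP-1, which binds the miR-21 promoter, had 12.73 ± 0.42 at d3 and 13.28 ± 0.20 at d7, with d7 above d3 on every array (adjusted p = 0.647). The log2 differences of the list ran from -0.29 to 1.07, and both ends were AP-1 subunits. The lowest was that of Jund, with 6.90 ± 0.59 and 6.61 ± 0.29 (adjusted p = 0.727 from limma), and its days overlapped. The highest was that of Fosl2, with 9.57 ± 0.53 and 10.64 ± 0.31 (adjusted p = 0.547). The d7 arrays of Fosl2 lay above all d3 arrays, as those of Jun and Fos did. Fos had a log2 difference of 0.53 and Fosb of 0.06 (adjusted p = 0.662 and 0.961 from limma), and Fosl1 was at the background. Hif1a, a factor of the response to low oxygen, had 12.74 ± 0.02 and 12.75 ± 0.01 (adjusted p = 0.662). Of 15 measured genes near Vmp1 none passed, 2 were higher and 1 lower at an unadjusted p under 0.05 (7.66% of all probe sets, 17.6% above the background), and the median log2 difference was -0.01. Cltc, the clathrin heavy chain gene of that stretch, had 15.15 ± 0.11 and 15.32 ± 0.07 (adjusted p = 0.647), and Gdpd1, a phosphodiesterase gene, had 10.14 ± 0.55 and 9.62 ± 0.10 (adjusted p = 0.662).

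Vmp1 acts in autophagy, and of 29 measured genes of autophagosome formation none passed. At an unadjusted p under 0.05 there were 4, all higher at d7, where 8.06% of the probe sets above the background were higher at that level, and the median log2 difference was 0.03. Sqstm1, the cargo receptor p62, had 11.79, 11.46 and 11.60 at d3 and 12.38, 12.40, 12.35 and 12.21 at d7 (adjusted p = 0.0983). Its log2 difference of 0.72 passed after quantile normalization, in both filters on dim probe sets, among probe sets with 7 different values and without d3 replicate 1 (adjusted p from 0.0106 to 0.0476). In the filtered sets a larger share of probe sets passed too. Gabarapl2, an ATG8 protein of the autophagosome membrane, had 10.90 ± 0.04 and 11.16 ± 0.06 (adjusted p = 0.142), and it passed only among probe sets above the background (adjusted p = 0.0450). Atg3, the enzyme that joins ATG8 proteins to lipid, had 11.56 ± 0.17 and 11.54 ± 0.02 (adjusted p = 0.945).

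**Figure D3:**
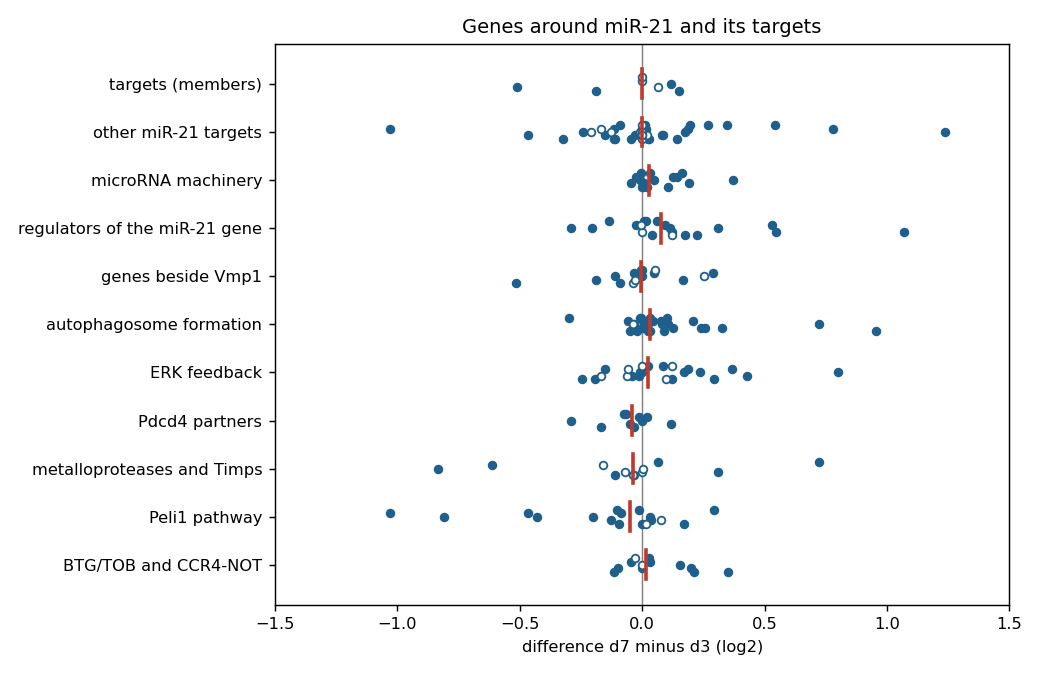
Log2 difference d7 minus d3 (x axis) of each measured gene in 11 groups around miR-21 and its targets (rows), with filled points above the array background, open points at it, and a red line for each group's median. The medians lie between -0.05 and 0.08, and none of these genes passed the test over all probe sets.

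Precursors of other microRNAs known in macrophages were measured on the same arrays, and none passed, although Mir511, Mir142 and Mir146 had larger differences than the probe set listed for Mir21a. Of 22 with a probe set of their own, 10 were above the background, and 1 was higher and 2 lower at d7 at an unadjusted p under 0.05. These 3 were above the background, where 17.6% of probe sets reached that level. Mature strands of these 3 genes, for Mir511 only the 3p strand, are shown to set their seeds (capitals) beside that of miR-21.
miR-511-3p: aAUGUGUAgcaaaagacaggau
miR-142a-5p: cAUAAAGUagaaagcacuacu
miR-142a-3p: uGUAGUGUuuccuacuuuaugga
miR-146a-5p: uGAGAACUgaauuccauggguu
miR-146a-3p: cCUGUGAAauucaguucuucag
None of these seeds is that of miR-21a-5p. Mir511 lies within the span of Mrc1, the mannose receptor gene. It had 7.41, 7.60 and 7.67 at d3 and 8.79, 8.64, 8.32 and 9.30 at d7, the d7 mean being 2.30-fold the d3 mean with a 95% confidence interval from 1.54 to 3.45 (adjusted p = 0.270 from limma). Mrc1 itself rose by 1.42 on the log2 scale (adjusted p = 0.0263), with means of 15.26 ± 0.15 and 16.68 ± 0.12, a call kept without d3 replicate 1 and lost without any other 1 array (adjusted p from 0.0666 to 0.121). Mir142, expressed in blood cells, had 9.70, 9.17 and 9.71 at d3 and 8.71, 8.45, 8.17 and 8.12 at d7 (adjusted p = 0.219). Mir146, whose product restrains signals from Toll-like receptors, had 5.96, 6.49 and 6.14 at d3 and 5.27, 5.39, 5.45 and 4.96 at d7 (adjusted p = 0.236). The d7 mean, 5.27, did not exceed the array background. All 3, the only ones of the 22, had no overlap between the days, against 6% of all probe sets and 14.6% of those above the background. They passed among probe sets with 7 different values (adjusted p = 0.0185, 0.0138 and 0.0184 for Mir511, Mir142 and Mir146). In that set a larger share of probe sets passed than of all probe sets. Shared probe sets held 2 further microRNAs of macrophages. The one listed for Mir223 and F630028O10Rik had 11.77 ± 0.46 at d3 and 11.97 ± 0.26 at d7 (adjusted p = 0.761), and the one listed for Mir155 and its host Mir155hg was at the background.

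**Figure D4:**
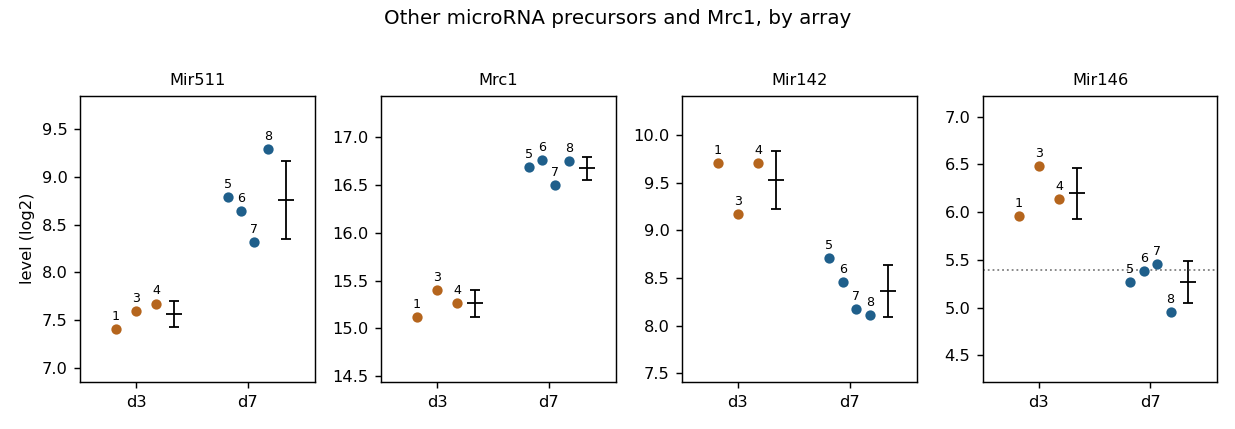
Log2 level (y axis, each panel spanning 3 units) on each d3 and d7 array (x axis) for Mir511, Mrc1, Mir142 and Mir146, with points numbered by replicate, a bar for the mean, whiskers for the SD (n = 3 at d3, n = 4 at d7), and a dotted line at the array background of 5.39. Mir511 and Mrc1 are higher, and Mir142 and Mir146 lower, on every d7 array than on any d3 array.

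Facts of the whole series bear on these values. Array medians ran from 4.14 to 4.22, means at or under the background made up 70.0% of the probe sets, and positive controls were dimmer in d3 replicate 3 (median 9.78) than elsewhere (10.01 to 10.09). Without that array the difference of the Vmp1 and Mir21a probe set was -0.17 and that of Btg2 was -0.48 (adjusted p = 0.439 and 0.474). All 9 measured macrophage markers were above the background, and the sorting markers Adgre1 and Itgam had log2 differences of 0.01 and -0.03. At an unadjusted p under 0.05, 3 of the 9 were higher and 2 lower at d7 (8.06% and 9.55% of the probe sets above the background). The higher ones were Mrc1, Mertk and Cd68 (log2 differences of 1.42, 0.44 and 0.33), the lower ones Fcgr1 and Lyz2 (-0.37 and -0.08). Of the 9 only Mrc1 passed. All 10 keratinocyte markers, Krt10 and Sfn among them, and all 8 measured lymphocyte markers, Nkg7 and Cd3g among them, were at the background, as were 8 of 9 fibroblast markers, with Col1a1 at 4.63 on every array. The exception was Pdpn, which macrophages can also express, at 11.76 ± 0.56 and 12.14 ± 0.16. Of 10 neutrophil markers Retnlg fell by 4.85 on the log2 scale (adjusted p = 0.0432, and from 0.0609 to 0.191 without any 1 array other than d3 replicate 1). Counting Retnlg, 3 were lower at an unadjusted p under 0.05, the others being Mmp8 and Csf3r. That level was reached as lower by 9.55% of the probe sets above the background. At the background were 4, Ngp, Ltf, Camp and Ly6g. Means were lower at d7 for 5 of the 10 and higher for 5, S100a8, S100a9 and Cxcr2 among the latter (log2 differences of 0.13, 0.14 and 0.14), with S100a8 at 12.06 in d7 replicate 6 and from 9.76 to 10.62 in the other d7 arrays. The summed log2 level of that list was 79.54 to 81.63 at d3 and 72.44 to 79.53 at d7. Within these sums Retnlg alone gave 10.35 to 11.95 at d3 and 6.05 to 6.94 at d7. The part of that list in the values of Btg2, Peli1 and the other genes above was not tested. Of 9 endothelial markers Kdr had 6.52 ± 0.05 and 5.43 ± 0.19 (adjusted p = 0.0567, and 0.0134 among probe sets above the background), and 7 were at the background, while Pecam1, which leukocytes share, had 7.49 ± 0.14 and 7.33 ± 0.10.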

How the data were processed

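The deposited table holds log2 probe set levels that the authors made from Affymetrix GeneChip Mouse Transcriptome arrays. Per the labels, Affymetrix Expression Console was used, with no version, and further analysis by the authors used dChip and Genespring GX. That the scale is log2 follows from the range of the values, from 1.89 to 19.89. They are not centred by gene, each is a level without direction, and the normalization between arrays is not given in the sources used here. Medians of the probe sets tested were 4.14, 4.22 and 4.17 on d3 (replicates 1, 3 and 4) and 4.14, 4.16, 4.17 and 4.15 on d7 (replicates 5 to 8). Depth has no counterpart on an array, and the number of arrays limits the precision.

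Leaving out 6732 array controls kept 65956 of 72688 probe sets, of which 30638 have 1 symbol in the platform table, 2176 several and 33142 none listed. A gene was read from probe sets with 1 symbol, by the highest mean where there were several. Only 12129 probe sets had 7 different values. Under R 4.3.3, limma 3.58.1 gave each d7 minus d3 difference with a two-sided test (lmFit, then eBayes, without covariates) and Benjamini-Hochberg adjustment over all 65956, a threshold of 0.05, and folds as powers of 2. The test was tried on simulated data. Python 3.11.15 with pandas 2.3.3 and matplotlib 3.10.9 read sequences and drew plots. Named are all targets, Klf5, and of each list the genes that passed, or else the 2 with the highest level and up to 2 with an unadjusted p under 0.01. Some further list genes are named for their role or value. No likeness to Mir21a or Vmp1 was ranked, since neither has a probe set of its own. The genes and lists were chosen with earlier results of these data known. Alternatives were quantile normalization, median centring, a mean-variance trend, robust eBayes, array weights, filters at the background and the median level, 1 probe set or the mean of probe sets per gene, the methods' t-test, and each array left out. The restriction to probe sets with 7 different values was chosen once the data had been seen. It uses the values tested, and a larger share of the probe sets it keeps passed.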

Additional observations from a re-analysis of the deposited data

Results flagged for a closer look

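Within the 4 d7 arrays, 1 array stood apart from the others by Dixon's 95% criterion for 10 of the 47 named genes and probe sets tested, where chance gives about 1 in 20 groups. Many of these probe sets repeat a value on several arrays, which makes such gaps more common. Among the targets, Spry1 had 3.81 in replicate 6 against 3.69 to 3.71 in the others, all at the background, and Peli1 had 8.98 in replicate 5 against 9.16 to 9.20. Replicate 5 also stood apart for Hif1a (12.77 against 12.75) and Atg3 (11.51 against 11.55). Replicate 6 stood apart for Pabpc1 (14.74 against 14.67) and Btg1 (11.85 against 11.43 to 11.49). Replicate 8 did so for Timp2 (12.60 against 12.32 to 12.37), and, at the background, for Sfn (4.63 against 4.72), Krt10 (4.10 against 4.22) and Nkg7 (4.66 against 4.64).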

How the results depend on the processing

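No target passed in limma in any alternative named above, except Btg2 among probe sets with 7 different values (1 of the targets measured, chosen after seeing the data), and the methods' t-test before adjustment called 2, Btg2 and Peli1. Btg2 kept a negative difference in all 19 alternatives (from -0.59 to -0.46), as did Peli1 (from -0.21 to -0.14), and the probe set listed as Vmp1 and Mir21a in all 18 that gave it a value (from -0.17 to -0.01). Pdcd4 stayed positive (from 0.07 to 0.19), as did Spry2 (from 0.06 to 0.15). Reck and Timp3 are shifted off 0 by quantile normalization and median centring, by at most 0.02. Over all probe sets 77 passed, against 169 after quantile normalization, 223 with median centring, 374 above the array background, 208 at or above the median level, 824 with 7 different values, and 3652 or 13 with the methods' t-test before or after adjustment. Leaving out 1 array gave 1 to 212. No paired analysis was possible because the days share no replicate number. The background sets a floor, and Spry1, Reck, Timp3 and Klf5 had no level above it.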
